A study of Mus musculus with 25 samples.

Results

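The genes described here are 10 of lipid uptake, storage, hydrolysis and export that were grouped as fibroblast lipid handling genes and taken by name from the 47729 genes of the bulk count table and from 5 single-cell matrices. They are Lpl, Cd36 and Fabp5 (uptake), Plin2 and Ces1d (storage and hydrolysis), Apoe, Apod, Abca1 and Abca5 (carriers and export) and Pparg (a regulator). In the single-cell libraries Cd36, Fabp5 and Abca5 were on average highest in blood endothelial, mesothelial and alveolar epithelial cells, in that order. The name therefore does not describe the cells with the highest level of these 3, though a large share of Abca5 RNA still came from fibroblast-like cells. Abca1 also had its highest mean outside fibroblasts, in lymphatic endothelial cells, which only 2 libraries held in sufficient number. Pparg RNA was too sparse there to order the classes. All 10 passed the filter on low counts, which left 15773 genes for testing. The cells were Lin- lung cells, sorted as CD45-, CD31- and CD326-, and the bulk data hold 20 libraries in 5 groups of 4. Naive mice were not instilled. The other mice were taken 3 or 6 weeks after 1 intratracheal dose of bleomycin, a drug that injures the lung and causes fibrosis that can later resolve. Every group, the naive mice included, carried Col1a1-CreERT2 and floxed Fas alleles (exon 9), Fas being a death receptor. The groups called Fas-/- received tamoxifen in corn oil and those called Fas+/+ corn oil alone, between bleomycin and week 3. The deletion and tamoxifen therefore cannot be told apart, and the Col1a1 promoter limits deletion to cells that use it. Whether naive mice were injected is not stated in the sources used here, so a comparison with naive may also differ in the oil. The study's methods count replicates as individual animals, while the labels do not tie a bulk library to an animal. The age of the animals is not given in the sources used here. Each single-cell library came from 4 pooled mice, with 1 library per condition.

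Lipofibroblasts are fibroblasts of the alveolar wall that hold neutral lipid in droplets and are known for supplying lipid to alveolar type II cells, which make surfactant. Lipoprotein lipase frees fatty acids outside the cell, CD36 and fatty acid binding proteins carry them inward, perilipin 2 coats the droplet, and PPARgamma is the nuclear receptor that drives lipid storage genes. Cholesterol leaves cells through ABCA1 onto apolipoproteins such as ApoE, and both genes are textbook targets of the liver X receptors, which sense oxysterols.

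Apoe and Abca1 were the members called higher in Fas-/- than in Fas+/+ libraries at 3 weeks, so their promoters are printed. RefSeq promoters (GRCm38.p6, 250 bases before to 50 bases from the start) were matched for 7 of the 10 members, at 11 starts. Lpl, Ces1d and Fabp5 were not matched. Both promoters lie on the minus strand, that of Abca1 at chr4:53159846-53160145 and that of Apoe at chr7:19698572-19698871, the 1 of its 3 starts that held a searched motif. This Apoe window lies inside the annotated gene (chr7:19696109-19699188). The Apoe window at the annotated 5' end of the gene, chr7:19699139-19699438, held no searched motif. Capitals mark TATAAA on either strand, the core motif at which transcription starts are placed, and the earlier capital run in Abca1 marks CACGTG, an E-box.
Abca1: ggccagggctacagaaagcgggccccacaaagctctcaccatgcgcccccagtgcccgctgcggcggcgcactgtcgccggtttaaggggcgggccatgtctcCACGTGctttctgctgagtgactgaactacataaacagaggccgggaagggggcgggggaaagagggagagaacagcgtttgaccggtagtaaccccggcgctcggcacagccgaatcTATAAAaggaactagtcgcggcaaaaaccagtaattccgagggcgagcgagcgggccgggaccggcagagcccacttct
Apoe: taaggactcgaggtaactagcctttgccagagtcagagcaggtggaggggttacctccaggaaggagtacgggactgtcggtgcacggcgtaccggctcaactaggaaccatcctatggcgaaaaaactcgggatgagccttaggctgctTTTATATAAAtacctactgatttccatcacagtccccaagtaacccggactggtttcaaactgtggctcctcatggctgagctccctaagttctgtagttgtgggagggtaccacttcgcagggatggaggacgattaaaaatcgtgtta
In Abca1 the former began 29 bases before the start and the E-box 147 bases before it. In the printed Apoe window, TATAAA began 96 bases before its internal start on the strand shown and 100 bases before it on the other strand, and these matches shared letters. Of 32851 promoters of this length, 13.6% held TATAAA and 7.15% held CACGTG on either strand. The hexamer AGGTCA, which nuclear receptors bind, was in the promoters of Plin2, Cd36 and Pparg and in 16.3% of all promoters. Its spaced repeats AGGTCANAGGTCA and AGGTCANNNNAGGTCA are the consensus forms bound by PPARgamma and by liver X receptors, and only exact copies were searched. Exact copies were in none of the 11 windows and in 0.0396% and 0.0152% of all promoters. Sites that depart from these letters were not searched, so binding sites of these receptors may be present in the windows.

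Bulk depth ran from 11819700 to 25189096 counts per library. Despite the sort, markers of other cell types were present and varied. The sum of 9 blood endothelial markers ran from 178 to 473 CPM (counts per 1000000 of the library) in naive libraries and from 739 to 10769 CPM at 3 weeks, where Fas+/+ replicate 1 (10769) and Fas-/- replicate 4 (9535) stood apart. At 6 weeks it ran from 125 to 3028 CPM, with Fas-/- replicate 2 the highest. The sum of 9 alveolar epithelial markers was 37.3 to 129 CPM in naive libraries, 202 to 770.0 CPM at 3 weeks, 542.5 to 1542 CPM in week 6 Fas+/+ and 128 to 401 CPM in week 6 Fas-/- libraries. The 11 macrophage markers summed to 8.31 to 178 CPM, with Marco at 0 in 14 of 20 libraries, and the 6 erythroid markers to 2979.5 to 9591 CPM in naive libraries against at most 236 CPM in the others. The 6 adipocyte markers summed to at most 5.97 CPM, with Adipoq at 0 in 4 libraries. In bulk RNA, fewer cells of a type and less RNA per cell cannot be told apart. Fas was at 33.97 to 57.7 CPM in Fas+/+ and 34.4 to 64.9 CPM in Fas-/- libraries at 3 weeks, but its counts cover all exons and so do not check the loss of exon 9.

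Per kilobase of exon, naive levels spanned almost 3 orders of magnitude. The length was the union of the exons of all annotated transcripts of a gene (10478 bases for Lpl and 3567 for Fabp5). It can exceed that of the transcript expressed, so the order of genes on this scale depends on the annotation. The mean was 598.1 CPM per kilobase for Apoe and 243.6 for Ces1d, then 23.2 for Plin2, 18.4 for Apod, 16.8 for Abca1 and 7.19 for Lpl. Cd36 (3.62), Abca5 (1.72), Fabp5 (1.61) and Pparg (0.831) were the lowest on this scale. In Fas+/+ libraries at 3 weeks, Cd36 (87.5 CPM per kilobase) and Lpl (38.6) had moved above Plin2 (24.3), Apod (18.5) and Abca1 (16.01).

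**Figure D1:**
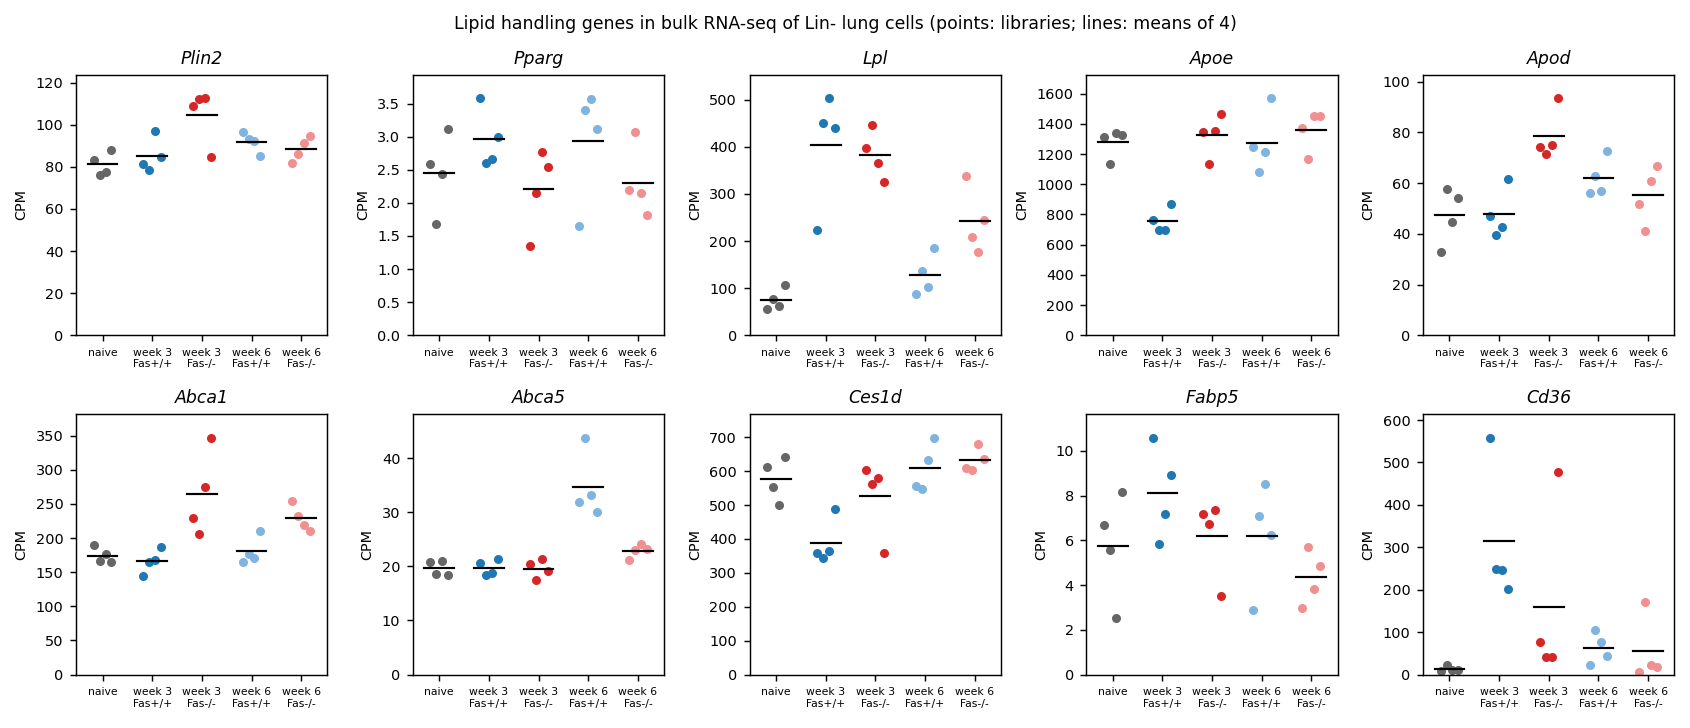
Level of each of the 10 genes in CPM (vertical axes, linear) in the 20 bulk libraries by group. Points are libraries and lines are means of 4. Lpl and Cd36 stood above naive at 3 weeks in both genotypes, Apoe was low in the 4 week 3 Fas+/+ libraries, and Abca5 was high in the 4 week 6 Fas+/+ libraries.

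Lpl, which encodes lipoprotein lipase (ENSMUSG00000015568, chr8:68880491-68907448, GRCm38), was far above naive at 3 weeks in both genotypes and closer to naive at 6 weeks. Naive libraries held 55.2, 77.7, 62.5 and 106 CPM. At 3 weeks Fas+/+ libraries held 223, 452, 503 and 440.3 CPM, and Fas-/- libraries held 398, 446, 366 and 325 CPM. All 8 lay above every naive library, and the genotypes overlapped. At 6 weeks Fas+/+ libraries held 87.7, 137, 103 and 186 CPM and overlapped naive. Fas-/- libraries held 338, 209, 177 and 244 CPM, all above naive, and only the lowest of them lay below the highest Fas+/+ library.

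At 3 weeks Lpl was higher than naive by 2.42 on the log2 scale in Fas+/+ (5.37-fold, SE 0.285, edgeR adjusted p = 8.05e-06) and by 2.35 in Fas-/- libraries (SE 0.285, edgeR adjusted p = 2.55e-05). From 3 to 6 weeks it fell by 1.65 in Fas+/+ libraries (SE 0.278, edgeR adjusted p = 0.000618). In Fas-/- libraries the difference between weeks was -0.66 (edgeR adjusted p = 0.133), and at 6 weeks Lpl was 3.21-fold the naive level (SE 0.279 in log2, edgeR adjusted p = 0.00181). In Fas+/+ libraries at 6 weeks it differed from naive by 0.77 (edgeR adjusted p = 0.115), and by 1.05 with the mean endothelial marker level as a covariate (edgeR adjusted p = 0.0408), an alternative added after seeing the data. The genotypes differed by -0.08 at 3 weeks (95% interval -0.61 to 0.45) and by 0.91 at 6 weeks (95% interval 0.38 to 1.45, edgeR adjusted p = 0.252, two-sided exact permutation p = 0.0571). The smallest p that the exact test of 4 against 4 can give is 0.0286. The difference between those differences was 0.99 (95% interval 0.24 to 1.74, edgeR adjusted p = 0.505), so the genotypes were not shown to differ in the fall.

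In all 5 groups the libraries with the lowest and the highest Lpl were those with the lowest and the highest sum of 8 profibrotic fibroblast markers (Cthrc1, Postn, Spp1, Tnc, Fn1, Thbs1, Col1a1 and Col1a2). In week 3 Fas+/+ libraries this sum was 14018 CPM in replicate 1, where Lpl was lowest, and 55779 to 68421 CPM in the other 3. In week 6 Fas-/- libraries it was 33177 CPM in replicate 1, where Lpl was highest, and 22839 to 29231 CPM in the other 3. Between groups this order was not always kept. In naive libraries the sum was 16803 to 24756 CPM, with Lpl at most at 106 CPM. Week 3 Fas+/+ replicate 1 had a lower sum than these and Fas-/- replicate 4 one of 24803 CPM, with Lpl at 223 and 325 CPM. In the remaining week 3 libraries the sum ran from 47078 to 68421 CPM. As deviations from group means over 20 libraries, the log2 levels of Lpl and of these markers had a Pearson correlation of 0.742, and those of Lpl and the 8 lipofibroblast markers of -0.619. With markers of cycling cells the correlation of Lpl was nearly as high, at 0.737. The libraries share cells and depth between these measures, and the part of cell makeup in the Lpl differences was not tested.

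Cd36, a fatty acid transporter and scavenger receptor (ENSMUSG00000002944, chr5:17781690-17888801), had the largest fold change of the 10 and the widest spread. Naive libraries held 8.57, 21.5, 10.7 and 11.3 CPM. At 3 weeks Fas+/+ libraries held 559, 249.7, 247 and 202 CPM, and Fas-/- libraries held 76.4, 41.5, 42.3 and 478 CPM. All 8 lay above naive, and the genotypes overlapped only through Fas-/- replicate 4. At 6 weeks the levels were 23.5, 105, 76.6 and 44.3 CPM in Fas+/+ and 6.94, 171, 22.5 and 18.3 CPM in Fas-/- libraries. The highest Cd36 library of all 5 groups was the one with the highest endothelial marker sum.

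Cd36 was higher than naive at 3 weeks by 4.59 in Fas+/+ (24.2-fold, SE 1.00, edgeR adjusted p = 0.0016) and by 3.61 in Fas-/- libraries (SE 0.959, edgeR adjusted p = 0.00881). Without Fas-/- replicate 4 the latter was 2.02 (edgeR adjusted p = 0.0596), with the endothelial covariate 0.21 (edgeR adjusted p = 0.327) and with the epithelial one, also added after seeing the data, 0.54 (edgeR adjusted p = 0.844). The Fas+/+ difference stayed called with the endothelial covariate, and with the epithelial one it was 1.70 (edgeR adjusted p = 0.438). As deviations from group means over 20 libraries, Cd36 and the endothelial markers had a Pearson correlation of 0.99. Between genotypes the difference was -0.98 at 3 weeks (95% interval -2.67 to 0.71, edgeR adjusted p = 0.808) and -0.19 at 6 weeks (95% interval -1.883 to 1.498, edgeR adjusted p = 0.997).

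Fabp5, a cytosolic fatty acid binding protein (ENSMUSG00000027533, chr3:10012548-10016607), was low and was called in no comparison. It ran from 2.53 to 8.18 CPM in naive, 5.85 to 10.6 CPM in week 3 Fas+/+ and 3.52 to 7.35 CPM in week 3 Fas-/- libraries. At 6 weeks it ran from 2.87 to 8.53 CPM in Fas+/+ and from 2.98 to 5.69 CPM in Fas-/- libraries. All groups overlapped, and the difference between week 3 Fas+/+ and naive libraries was 0.51 (95% interval -0.18 to 1.19).

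**Figure D2:**
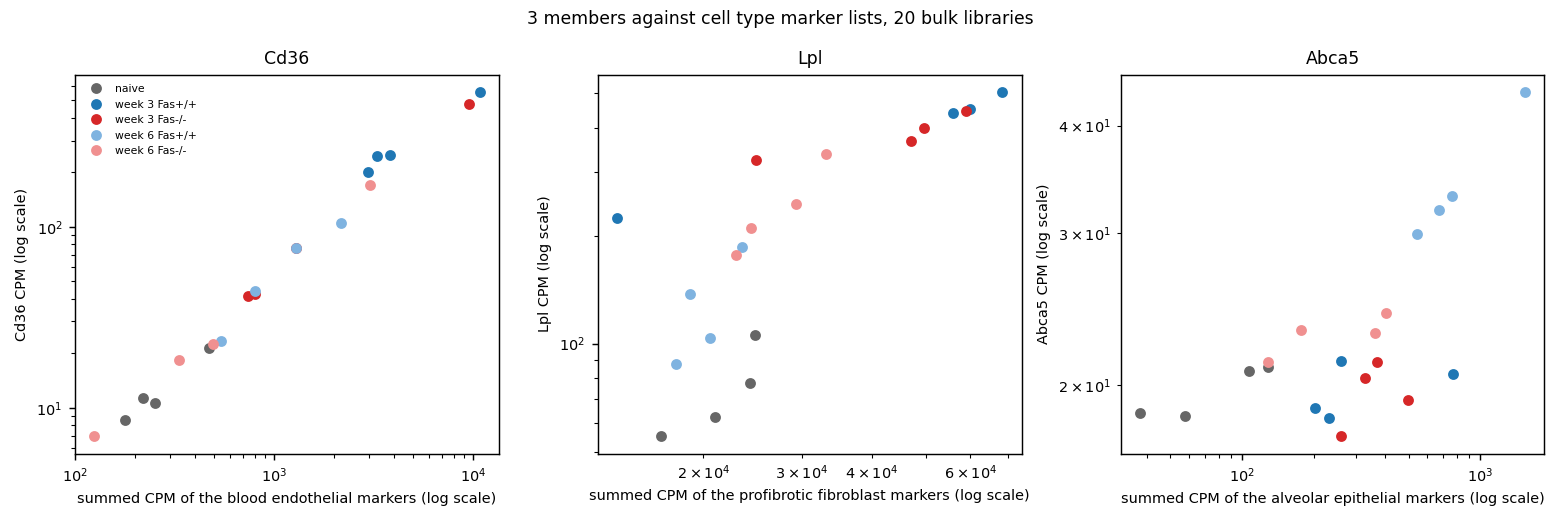
CPM of Cd36, Lpl and Abca5 (vertical axes) against the summed CPM of 9 blood endothelial, 8 profibrotic fibroblast and 9 alveolar epithelial markers (horizontal axes) in the 20 bulk libraries, all axes on a log scale, coloured by group. Cd36 followed the endothelial sum across all groups, and Abca5 was highest in week 6 Fas+/+ replicate 2, where the epithelial sum reached 1542 CPM.

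Plin2, the droplet coat protein (ENSMUSG00000028494, chr4:86648386-86670060), kept within a narrow range. Naive libraries held 83.3, 76.3, 77.7 and 88.0 CPM, and week 3 Fas+/+ libraries 81.2, 78.3, 96.9 and 84.4 CPM. Week 3 Fas-/- libraries held 109, 112, 113 and 84.4 CPM, so 3 of the 4 lay above every other library and replicate 4 lay among the naive ones. Week 6 levels ran from 85.2 to 96.5 CPM in Fas+/+ and from 81.7 to 94.7 CPM in Fas-/- libraries. Plin2 rose by 0.36 from naive to week 3 Fas-/- (SE 0.0892, edgeR adjusted p = 0.00558, two-sided exact permutation p = 0.0571). Between genotypes at 3 weeks the difference was 0.30 (edgeR adjusted p = 0.230), and 0.39 without Fas-/- replicate 4 (edgeR adjusted p = 0.0156).

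Ces1d, a carboxylesterase that hydrolyses triglyceride (ENSMUSG00000056973, chr8:93166068-93197838), was lower than naive in Fas+/+ libraries at 3 weeks and not at 6 weeks. Naive libraries held 613, 554, 499 and 642 CPM. At 3 weeks Fas+/+ libraries held 357, 344, 363 and 489 CPM, all below naive, and Fas-/- libraries held 603, 562, 580.0 and 359.9 CPM, of which only replicate 4 lay below naive. Week 6 levels ran from 548 to 699 CPM in Fas+/+ and from 605 to 680.1 CPM in Fas-/- libraries, all above week 3 Fas+/+.

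In Fas+/+ libraries Ces1d fell by 0.57 from naive to week 3 (SE 0.146, edgeR adjusted p = 0.00467) and rose by 0.65 from 3 to 6 weeks (SE 0.146, edgeR adjusted p = 0.00406). The fall was -0.21 with the endothelial covariate (edgeR adjusted p = 0.461) and -0.27 with the epithelial one (edgeR adjusted p = 0.413), so neither kept the call. Between genotypes at 3 weeks Ces1d differed by 0.44 (edgeR adjusted p = 0.316), and by 0.59 without Fas-/- replicate 4 (edgeR adjusted p = 0.0181). The Ces1 genes are close paralogs, so counts between Ces1d and the other Ces1 genes are uncertain where reads match several.

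Apoe, the apolipoprotein that receives exported cholesterol (ENSMUSG00000002985, chr7:19696109-19699188), was lower in 1 group than in the others. Naive libraries held 1316, 1132, 1339 and 1328 CPM. At 3 weeks Fas+/+ libraries held 767, 695, 699.8 and 867 CPM, below every other library, and Fas-/- libraries held 1348, 1134, 1354 and 1469 CPM, overlapping naive. At 6 weeks the levels were 1245, 1079.5, 1211 and 1570.3 CPM in Fas+/+ and 1373, 1168, 1453 and 1449.5 CPM in Fas-/- libraries, and both overlapped naive. In Fas+/+ libraries Apoe fell by 0.76 from naive to week 3 (SE 0.117, edgeR adjusted p = 1.01e-04) and rose by 0.75 from 3 to 6 weeks (1.69-fold, SE 0.117, edgeR adjusted p = 0.000354). In Fas-/- libraries it differed from naive by 0.05 at 3 weeks (95% interval -0.18 to 0.28) and by 0.09 at 6 weeks (95% interval -0.14 to 0.32). The 8 lipofibroblast markers were lower than naive alongside Apoe and Ces1d in week 3 Fas+/+ libraries (8 of 8 called, 19.2% of all genes). In week 3 Fas-/- libraries, where Apoe was not called, 6 of 8 were lower (14.8% of all genes). Other marker lists also had genes called lower in week 3 Fas+/+ libraries. Among them were pericyte (7 of 7), vascular smooth muscle (5 of 6), mesothelial (5 of 6) and Col14a1+ fibroblast markers (5 of 8, with 2 higher). Profibrotic (6 of 8) and blood endothelial markers (9 of 9) were called higher. The median sum of the lipofibroblast markers was 10224 CPM in naive, 3582 CPM in week 3 Fas+/+ and 5748 CPM in week 3 Fas-/- libraries. Its part in the Apoe and Ces1d levels was not tested.

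Apod, a lipocalin that binds small lipids (ENSMUSG00000022548, chr16:31296192-31314808), was highest in week 3 Fas-/- libraries. Naive libraries held 32.8, 57.6, 44.7 and 54.1 CPM, and week 3 Fas+/+ libraries 46.9, 39.4, 42.7 and 61.6 CPM. Week 3 Fas-/- libraries held 74.1, 71.6, 75.0 and 93.5 CPM, all above both groups. Week 6 levels were 56.2, 62.9, 56.7 and 72.6 CPM in Fas+/+ and 51.9, 41.2, 60.9 and 66.6 CPM in Fas-/- libraries, which overlapped each other and naive. Apod rose by 0.73 from naive to week 3 Fas-/- (1.66-fold, edgeR adjusted p = 0.00506), and with the epithelial covariate the difference was 0.79 (edgeR adjusted p = 0.0776).

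Abca1, the cholesterol exporter (ENSMUSG00000015243, chr4:53030787-53159895), was higher than naive in week 3 Fas-/- libraries. Naive libraries held 189, 166, 176 and 165 CPM, and week 3 Fas+/+ libraries 144, 164, 168 and 187 CPM. Week 3 Fas-/- libraries held 229.8, 206, 275 and 347 CPM, all above both groups. At 6 weeks the levels were 164, 177, 170.5 and 210.1 CPM in Fas+/+ and 255, 232, 219.9 and 210.2 CPM in Fas-/- libraries, whose ranges nearly touched. Abca1 rose by 0.60 from naive to week 3 Fas-/- (1.52-fold, SE 0.130, edgeR adjusted p = 0.00229), and with the epithelial covariate the difference was 0.55 (edgeR adjusted p = 0.0978). At 6 weeks in Fas-/- libraries it differed from naive by 0.40 (95% interval 0.14 to 0.65, edgeR adjusted p = 0.0807). In Fas+/+ libraries it differed from naive by -0.07 at 3 weeks (95% interval -0.32 to 0.19) and 0.05 at 6 weeks (95% interval -0.20 to 0.31).

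Abca5, an ABC transporter of lysosomes and late endosomes (ENSMUSG00000018800, chr11:110269369-110337716), stood apart in week 6 Fas+/+ libraries. Naive libraries held 20.8, 18.6, 20.97 and 18.4 CPM, and at 3 weeks the levels ran from 18.3 to 21.3 CPM in Fas+/+ and from 17.4 to 21.3 CPM in Fas-/- libraries. These 3 groups overlapped. At 6 weeks Fas+/+ libraries held 31.9, 43.8, 33.2 and 29.96 CPM, above all others, and Fas-/- libraries held 21.3, 22.95, 24.2 and 23.2 CPM. In Fas+/+ libraries at 6 weeks Abca5 was 0.82 above naive (1.76-fold, SE 0.103, edgeR adjusted p = 1.56e-04) and 0.81 above 3 weeks (SE 0.103, edgeR adjusted p = 0.00011).

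The epithelial marker sum of these 4 libraries, 542.5 to 1542 CPM, lay above all naive ones, and replicate 2 was the highest in both measures. The sums of the week 3 libraries (202 to 770.0 CPM) also lay above all naive ones, while Abca5 ran from 17.4 to 21.3 CPM there. In week 3 Fas+/+ replicate 1 the sum, 770.0 CPM, was within the week 6 Fas+/+ range. As deviations from group means over 20 libraries, Abca5 and the epithelial markers had a Pearson correlation of 0.751. For this correlation and the covariate, the epithelial level was the mean log2 CPM of the markers, not the sum. By that measure, week 6 Fas+/+ replicates 1 to 4 stood at 3.04, 5.678, 3.385 and 3.354. Week 3 libraries ran from 3.551 to 5.008 and naive ones from 1.288 to 1.923. Only replicate 2 of week 6 Fas+/+ therefore lay above the week 3 range. With the epithelial covariate Abca5 at 6 weeks in Fas+/+ libraries was 0.45 above naive (edgeR adjusted p = 0.128). At 3 weeks the covariate turned the difference from 0.01 to -0.37 in Fas+/+ (edgeR adjusted p = 0.0411) and from -0.01 to -0.38 in Fas-/- libraries (edgeR adjusted p = 0.0439).

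Pparg (ENSMUSG00000000440, chr6:115360951-115490399) had the lowest level per kilobase and was called in no comparison. It ran from 1.68 to 3.12 CPM in naive libraries and from 1.35 to 3.58 CPM after bleomycin, and all groups overlapped. Fas-/- and Fas+/+ libraries differed by -0.43 at 3 weeks (95% interval -0.95 to 0.10) and by -0.34 at 6 weeks (95% interval -0.87 to 0.18).

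Counted together, 2 members were called higher than naive at 3 weeks in Fas+/+ libraries (Lpl and Cd36), where 22.1% of all genes tested were, and 2 were called lower (Apoe and Ces1d), where 19.2% were. In Fas-/- libraries 5 were called higher (Lpl, Cd36, Plin2, Apod and Abca1), where 17.2% of all genes were. None was called lower there by edgeR (14.8% of all genes), and neither an unadjusted p under 0.05 nor DESeq2 added a member to the 5. The median log2 difference of the members was 0.04 in Fas+/+ and 0.23 in Fas-/- libraries, against 0.01 and 0.02 over all genes. Both comparisons share the naive libraries. Here and below, counts at an unadjusted p or by DESeq2 have no share of all genes beside them and are a description only.

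At 6 weeks 1 member was called higher than naive in Fas+/+ libraries (Abca5, 3.57% of all genes) and 1 in Fas-/- libraries (Lpl, 3.66%), and edgeR called 0 lower in either (1.74% and 2.81%). In each, 4 members had an unadjusted p under 0.05 and DESeq2 called 1. From 3 to 6 weeks in Fas+/+ libraries 3 were called higher (Apoe, Abca5 and Ces1d, 12% of all genes) and 1 lower (Lpl, 10.9%). There 6 members had an unadjusted p under 0.05 and DESeq2 called 5, adding Cd36 (-2.34, adjusted p = 0.0353). In Fas-/- libraries edgeR called 0 in either direction (4.48% higher and 4.54% lower), 4 members had an unadjusted p under 0.05 (Plin2, Lpl, Apod and Abca5), and DESeq2 called 1, Apod. The Fas-/- difference of Apod between weeks was -0.51 (edgeR adjusted p = 0.0779), and that of Cd36, at -1.55 with all libraries, was -3.30 without week 6 replicate 2 (edgeR adjusted p = 0.0272).

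Between genotypes at 3 weeks 2 members were called higher in Fas-/- libraries, where 0.165% of all genes, or 26, were. Apoe was 0.81 higher (1.75-fold, SE 0.117, 95% interval 0.58 to 1.04, edgeR adjusted p = 0.0085, two-sided exact permutation p = 0.0286) in 4 of 4 libraries. Abca1 was 0.67 higher (1.59-fold, SE 0.130, 95% interval 0.42 to 0.93, edgeR adjusted p = 0.0436, two-sided exact permutation p = 0.0286), also in 4 of 4. Apod was 0.72 higher with no overlap and did not pass (edgeR adjusted p = 0.123), though DESeq2 called it (adjusted p = 0.0185). No member was called lower by edgeR, where 0.00634% of all genes were. An unadjusted p under 0.05 was reached by 5 (all of them higher), and DESeq2 called 3, both without a share of all genes to set beside them.

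The calls of Apoe and Abca1 were lost in several alternative fits. Without week 3 Fas+/+ replicate 2 the adjusted p was 0.0602 for Apoe and 0.167 for Abca1 in edgeR, and without replicate 3 it was 0.0589 and 0.141. With only these 8 libraries in the fit it was 0.138 and 0.488. Abca1 also missed the threshold without Fas-/- replicate 1 (0.0572) or replicate 3 (0.158) and with the epithelial covariate (0.0516). The differences themselves moved little, lying at 0.77 for Apoe without either Fas+/+ replicate.

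At 6 weeks the member called between genotypes was Abca5, which was 0.60 lower in Fas-/- libraries (SE 0.103, 95% interval -0.80 to -0.40, edgeR adjusted p = 0.0371, two-sided exact permutation p = 0.0286), where 0.0254% of all genes were called lower and as many higher. It missed the threshold without any 1 of the Fas-/- libraries, without Fas+/+ replicate 2 or 3 (range of the difference -0.67 to -0.47 over all 8), with only the compared groups in the fit (adjusted p = 0.163), with the epithelial covariate (-0.43, edgeR adjusted p = 0.208) and with the endothelial one (adjusted p = 0.0556). Among the other members 0 were called, 2 had an unadjusted p under 0.05 in edgeR (Lpl and Abca1), and DESeq2 called Abca5 alone. Apoe differed by 0.09 at 6 weeks (95% interval -0.14 to 0.32).

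Whether the genotype difference itself changed between weeks was tested by the interaction. No member passed in edgeR (0% of all genes were called higher and 0.00634% lower), 5 had an unadjusted p under 0.05 (Plin2, Lpl, Apoe, Apod and Abca5), and DESeq2 called 1, Apoe (adjusted p = 0.0101). The interaction was -0.72 for Apoe (95% interval -1.04 to -0.39, edgeR adjusted p = 0.161), -0.89 for Apod (edgeR adjusted p = 0.275), -0.59 for Abca5 (edgeR adjusted p = 0.217) and -0.35 for Plin2 (edgeR adjusted p = 0.438).

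**Figure D3:**
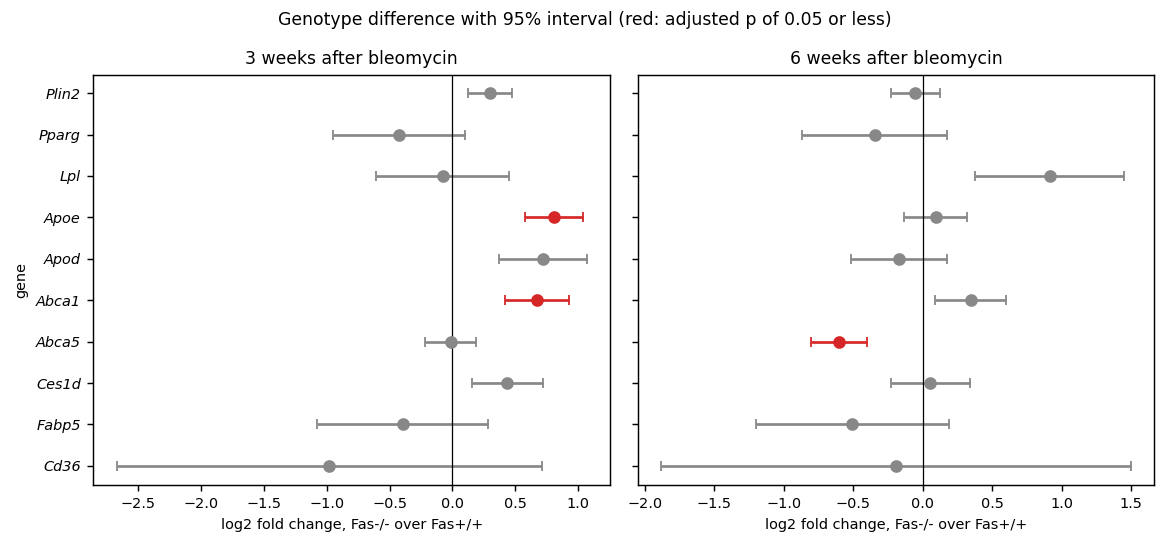
Log2 difference between Fas-/- and Fas+/+ bulk libraries for each of the 10 genes with its 95% interval, at 3 weeks (left) and 6 weeks (right), 4 libraries a group. Genes with an adjusted p of 0.05 or less are red, which are Apoe (0.81) and Abca1 (0.67) at 3 weeks and Abca5 (-0.60) at 6 weeks, and the interval of Cd36 is the widest.

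Of 113 other lipid genes tested at 3 weeks in Fas+/+ libraries, 23 were called higher and 39 lower than naive, where 22.1% of all genes were called higher and 19.2% lower. Of 8 other ABC class A transporters tested, 5 were among the lower and 0 among the higher by edgeR and by DESeq2 alike, with 0 higher at an unadjusted p under 0.05, and the median of the list was -0.63 against 0.01 over all genes. Abca8a fell by 1.23 (mean 703 to 300.1 CPM), Abca6 by 0.97 and Abca9 by 0.73 (edgeR adjusted p = 7.13e-05, 0.000126 and 0.000134). Abca1 and Abca5 differed from naive by -0.07 and 0.01 there and did not pass. In Fas-/- libraries 5 were called lower (14.8% of all genes), and from 3 to 6 weeks in Fas+/+ libraries 5 were called higher (12% of all genes).

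Among 12 genes of fatty acid and lipoprotein uptake, 2 were called higher and 7 lower than naive in Fas+/+ libraries at 3 weeks, the lower ones including the lipoprotein receptor Vldlr (-1.002), the acyl-CoA synthetase Slc27a3 (-0.87) and the fatty acid binding protein Fabp3 (-1.06). Of 13 droplet and lipolysis genes 4 were higher and 7 lower, with Plin3, another droplet coat protein, at -0.66, the lipase inhibitor G0s2 at -1.70 and the monoglyceride lipase Mgll at 1.15. Of 4 other carboxylesterases tested, 2 were called higher (Ces2e and Ces1g, at 2.18 and 1.82) and 0 lower, while Ces1d fell. Ces2e reached a mean of 4.13 CPM and Ces1g 2.42 CPM.

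Of 12 cholesterol efflux and liver X receptor genes, 3 were called higher and 4 lower in Fas+/+ libraries at 3 weeks. Ch25h, which makes 25-hydroxycholesterol, rose by 2.71 and Pltp, which transfers phospholipid between lipoproteins, by 1.49, while Nr1h3, which encodes liver X receptor alpha, fell by 0.93. Of 14 PPARG partners and adipogenic regulators 2 were higher and 4 lower, with Ppara at -1.10, Ebf1 at -0.51 and Ppard at 0.34. Of 8 PPAR target genes tested, 4 were higher, among them Cpt1a (0.64) and Ucp2 (1.99), and 2 lower. Synthesis of fatty acids and triglycerides (1 higher and 4 lower of 15, with Gpam at -0.74 and Srebf1 at -0.45), sterol synthesis (2 higher and 3 lower of 15) and fatty acid oxidation (3 and 3 of 12) also had called genes on both sides. All of these counts stand beside 22.1% higher and 19.2% lower over all genes and are given as a description only.

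In the genotype comparison at 3 weeks 2 of these 113 genes were called, both higher in Fas-/- libraries, where 0.165% of all genes were. Apoc1, an apolipoprotein whose gene lies beside Apoe, was 1.40 higher (mean 1.77 against 4.67 CPM, edgeR adjusted p = 0.0296), and Gpam, which starts glycerolipid synthesis, was 0.49 higher (90.5 against 127 CPM, edgeR adjusted p = 0.0237). At 6 weeks edgeR called 0 of the 113 between genotypes, with 13 at an unadjusted p under 0.05 and 1 called by DESeq2.

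The 15 sterol synthesis genes, which make cholesterol, were all below Fas+/+ in Fas-/- libraries at both weeks, with a median difference of -0.49 at 3 weeks and -0.41 at 6 weeks against 0.00 over all genes. None passed in edgeR at either week. An unadjusted p under 0.05 was reached by 8 of them at 3 weeks and 5 at 6 weeks, and DESeq2 called 1 at 3 weeks and 0 at 6 weeks. No share of all genes at these thresholds stands beside these counts, so they are a description only. Among those with the smallest adjusted p at 3 weeks were Idi1 (6.34 ± 1.89 against 3.37 ± 0.573 CPM, edgeR adjusted p = 0.175) and Msmo1 (23.4 ± 4.48 against 15.01 ± 2.4 CPM, edgeR adjusted p = 0.308), each a mean ± SD of 4 Fas+/+ against 4 Fas-/- libraries. Genes of 1 pathway are not independent of each other.

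In the single-cell libraries, 12059 of 13900 cells were kept, 603 in the naive library and 2608 to 3240 in the others, at a median of 5768 to 8896 UMIs (unique molecules) a cell. Of the kept cells 1540 carried a barcode that another library also held, 58.0% of the kept naive cells and 6.08% to 14.8% of the others, and of 249 barcodes kept in both the naive and the week 6 Fas-/- libraries 235 fell in the same class. The profibrotic marker sum over all cells was 5543 and 7377 UMI CPM (UMIs per 1000000 of the cells summed) in the libraries labelled week 3 and 15040 and 20680 in those labelled week 6, an order of weeks opposite to bulk. Whether the weeks of either data type were labelled correctly could not be settled from the files, so every single-cell week below is as labelled and may not be that of the bulk group of the same name. With 1 library per condition there is no test, and intervals cover counting error only. The members were kept out of the genes used for clustering.

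Classes were named from marker lists, and 4 clusters with 4285 cells were Wnt2+ lipofibroblast-like. The largest of these was led by Saa3, Lcn2, Hp and Serpina3n, acute-phase genes, with none of the class markers among its 10 leading genes, and it was the most frequent of the 4 in each bleomycin library. The next was led by Slc7a10, with Ces1d and Tcf21 among its leading genes, and was the most frequent in the naive library (138 of 282 cells). A cluster led by haemoglobin genes was left unnamed.

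**Figure D4:**
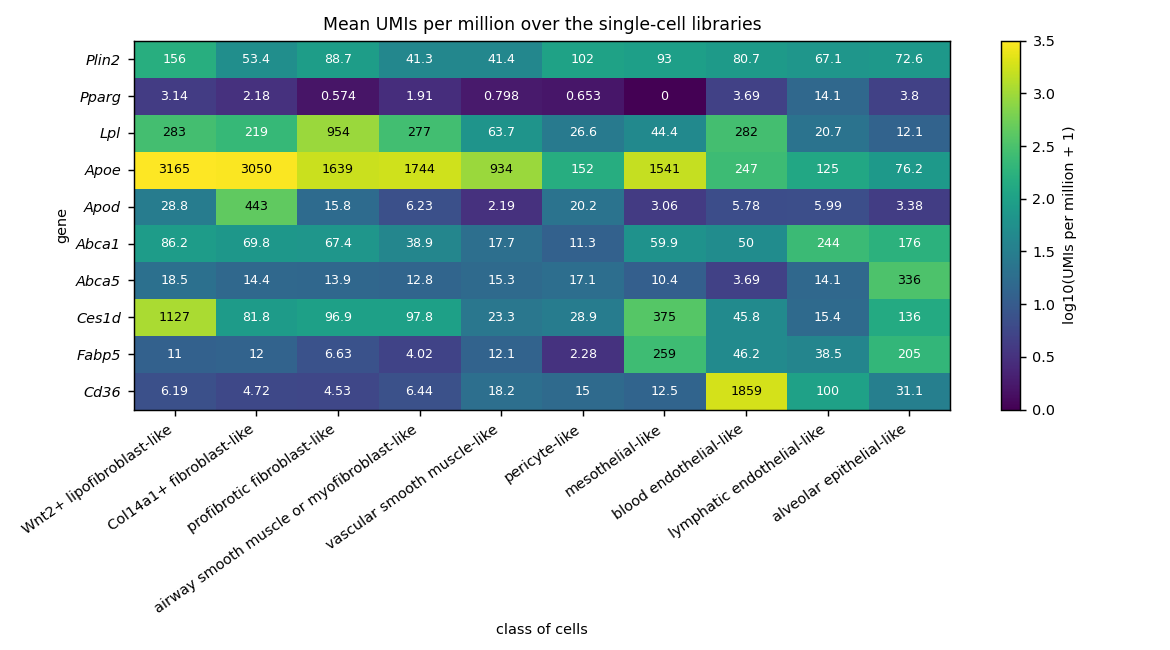
Mean UMI CPM of each of the 10 genes in each named cell class over the single-cell libraries with at least 20 cells of it (colour, log10 of the value plus 1). Plin2, Ces1d and Apoe were highest in Wnt2+ lipofibroblast-like cells, Apod in Col14a1+ fibroblast-like, Lpl in profibrotic fibroblast-like, Cd36 in blood endothelial, Abca5 in alveolar epithelial and Fabp5 in mesothelial cells. Abca1 had its highest mean in lymphatic endothelial cells (2 libraries), as did Pparg, which rested on few UMIs.

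By the mean over libraries, 3 of the 10 members were highest in Wnt2+ lipofibroblast-like cells. Ces1d was at 1187, 1016, 1039, 1139 and 1254 UMI CPM in the naive, week 3 Fas+/+, week 3 Fas-/-, week 6 Fas+/+ and week 6 Fas-/- libraries, against a mean of 375 in mesothelial cells, the next class. It was highest there in 5 of 5 libraries, and 84.8% to 90.7% of its UMIs came from these cells. Plin2 was at 134, 156, 137, 168 and 183 UMI CPM in the same order, also highest in 5 of 5, with pericytes next at a mean of 102. Apoe was spread more evenly, at 3229, 3419, 3404, 2475 and 3297 UMI CPM in lipofibroblast-like cells against a mean of 3050 in Col14a1+ fibroblast-like cells, and was highest in lipofibroblast-like cells in 3 of 5 libraries. Without cells of shared barcodes Apoe was higher in Col14a1+ cells (3283 against 3211), and in the unnamed cluster led by haemoglobin genes Plin2 stood at a mean of 228.8. Both alternatives were added after seeing the data.

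Within the lipofibroblast-like class the members differed between its clusters. Ces1d had a mean of 1886 UMI CPM in the cluster led by Slc7a10 and 709.7 in that led by Saa3, while Lpl had 40.3 and 419. Plin2 (185 and 141), Apoe (3319 and 3277) and Abca1 (80.8 and 85.9) were closer between these clusters. Ces1d was itself among the 10 leading genes of the cluster led by Slc7a10. The remaining clusters of the class, of 586 and 391 cells, had mean Apoe of 1537 and 3557, Abca1 of 154 and 60.0 and Plin2 of 114 and 209. Their UMIs a cell were at a median of 0.466 and 0.157 of the library median. Their median mitochondrial shares were 11.25% and 4.76%, and the part of cell quality in these levels was not tested.

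Apod was a gene of Col14a1+ fibroblast-like cells, a class found around airways and vessels, where it stood at 275, 482, 348, 433 and 677 UMI CPM. That was the highest class in 5 of 5 libraries, and lipofibroblast-like cells held 12.6 to 52.1. Col14a1+ cells held 58.4% to 84.9% of all Apod UMIs. As deviations from group means over 20 bulk libraries, Apod and the Col14a1+ markers had a Pearson correlation of 0.641, and Apod and the mesothelial markers of 0.571. Cd36, at a mean of 4.72 UMI CPM in Col14a1+ cells, had one of 0.65 with the same Col14a1+ markers, so this list is not specific to those cells in bulk.

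Lpl was highest in profibrotic fibroblast-like cells in the 4 bleomycin libraries, at 649.8 and 604 UMI CPM in the libraries labelled week 3 (Fas+/+ and Fas-/-) and 1323 and 1240.0 in those labelled week 6. The naive library held 10 such cells, too few for a value. In lipofibroblast-like cells Lpl was at 59.4 UMI CPM in the naive library (95% exact Poisson interval 50.8 to 69.0) and at 152, 338, 435 and 431 in the others in the order above. Without cells of shared barcodes the naive value was 28.5 (18.3 to 42.5). In bulk, Lpl was higher at 3 than at 6 weeks, whereas in both classes it was higher in the libraries labelled week 6, as the profibrotic marker sum was.

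**Figure D5:**
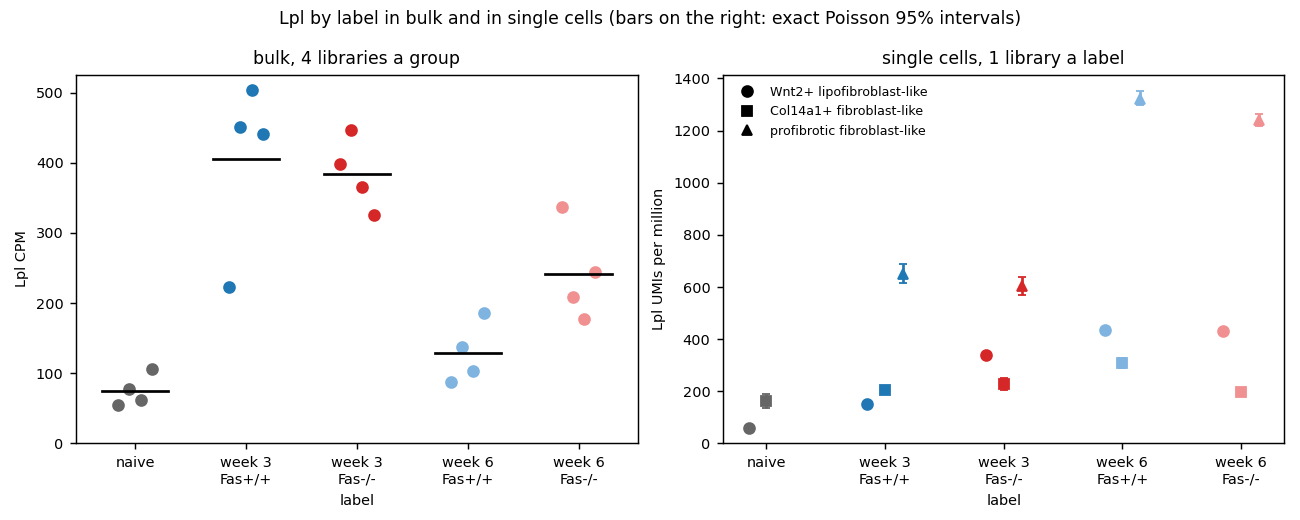
Lpl in bulk libraries (left, CPM by group, points are libraries) and in 3 fibroblast-like classes of the single-cell libraries (right, UMI CPM with 95% exact Poisson intervals that cover counting error only). Bulk levels were highest at 3 weeks, while profibrotic fibroblast-like cells reached 1323 and 1240.0 UMI CPM in the libraries labelled week 6.

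Cd36 belonged to blood endothelial cells, which held 1810, 1567, 2134 and 1926 UMI CPM in the 4 bleomycin libraries and 83.97% to 95.7% of all Cd36 UMIs. Lipofibroblast-like cells held 3.48 to 14.7, with the most in the library labelled week 6 Fas+/+, where 36.6% of cells were blood endothelial against 1.49% to 9.05% in the others. The part of free RNA in that level was not tested. Fabp5 was highest in mesothelial cells in 4 of 5 libraries (156 to 356 UMI CPM), against 8.20 to 14.2 in lipofibroblast-like cells.

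Abca5 was highest in alveolar epithelial cells in each of the 3 libraries with enough of them, at 350.3, 279.8 and 378 UMI CPM, where lipofibroblast-like cells held 12.9 to 22.5 over all 5. These epithelial cells made up 0.498% to 2.89% of cells and gave 14.3% to 40.5% of all Abca5 UMIs. Lipofibroblast-like cells, 22.4% to 46.8% of cells, gave 32.5% to 53.4% of them. Abca1 was spread over classes, at a mean of 176 in alveolar epithelial, 244 in lymphatic endothelial (2 libraries) and 86.2 in lipofibroblast-like cells, where its levels were 55.5, 89.1, 104, 73.4 and 109. The library labelled Fas-/- was above the library labelled Fas+/+ at each week in these cells, with no replicate. For Apoe the week 3 libraries held 3419 (Fas+/+) and 3404 (Fas-/-) there. Pparg gave 3, 46, 18, 38 and 63 UMIs in all lipofibroblast-like cells of the 5 libraries, or 1.05 to 5.10 UMI CPM, too few to order the classes.

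The genes most like each member over the 20 bulk libraries, by Pearson correlation of log2 CPM, are given as a description, since groups and cell makeup shape these values. For Lpl they were Kif26b (0.983) and Cthrc1 (0.976), the latter a profibrotic marker, and for Cd36 Podxl (0.997) and Cd93 (0.996). Those of Ces1d were Cpq (0.946) and Tmem98 (0.926), of Abca5 Wnt10b (0.911) and Patj (0.899), and of Apoe Gpam (0.891) and Adh1 (0.888). Apod (Nedd9 at 0.806 and Klk1 at 0.719) and Abca1 (Ppp1r2 at 0.770 and Nedd9 at 0.756) had Nedd9 in common. The closest gene was Brix1 (0.804) for Plin2, Cnmd (0.813) for Fabp5 and Gm20033 (0.735) for Pparg. As deviations from group means, the largest correlations among the members themselves were 0.595 between Ces1d and Fabp5, 0.556 between Plin2 and Ces1d, 0.523 between Apoe and Abca1 and -0.59 between Plin2 and Abca1.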

How the data were processed

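Raw counts per gene were deposited by the authors, who trimmed reads with skewer, aligned them with HISAT2 to GRCm38 and counted exons with HTSeq on Ensembl genes from a stranded mRNA kit. UMI counts per gene and cell were deposited by the authors from Cell Ranger. Bulk counts were filtered with filterByExpr (minimum count 10), scaled by TMM and tested with the edgeR quasi-likelihood test (edgeR 4.0.16, R 4.3.3) on all 20 libraries in 5 groups. P-values were adjusted by Benjamini-Hochberg over 15773 genes and called at 0.05, and differences are log2 fold changes of the edgeR fit. Log2 CPM of genes, used for the exact tests and correlations, had a prior count of 2. DESeq2 (1.42.0), RLE scaling, no filter, 2-group fits, leave-one-out and a replicate block were also run, and marker covariates were added after seeing the data. Steps were tested on simulated data. Barcodes were kept where 200 to 7500 genes were detected and the mitochondrial share was up to 20%, then integrated and clustered with Seurat 5.3.0 and sctransform 0.4.2 (20 components, resolution 0.8), with 242 listed genes left out of the clustering features. Scrublet in scanpy 1.11.5 marked under 0.5% of cells and so did not work as a doublet filter, and no doublets were removed. Classes were named from at least 3 markers and valued where a library held at least 20 cells. Replicate numbers were not treated as pairs. All 10 members are named, with at most 3 genes of each other lipid list, those of smallest adjusted p, and the 2 most correlated genes per member. A gene that this rule names is not reported here. The members and lists were chosen with earlier results of these data known.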

Additional observations from a re-analysis of the deposited data

Results flagged for a closer look

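Of 50 groups of 4 libraries examined (10 members in 5 groups), 9 held a library far from the other 3 by Dixon's test, where chance alone gives about 1 in 20. Replicate 4 of week 3 Fas-/- stood apart in 5 members: it was lowest for Plin2 (84.4 CPM), Ces1d (359.9 CPM) and Fabp5 (3.52 CPM) and highest for Apod (93.5 CPM) and Cd36 (478 CPM). Its blood endothelial marker sum was 9535 CPM against 739 to 1287 CPM in the other 3, and the part of those cells in its values was not tested.

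Cd36 was also far above the other 3 libraries in week 3 Fas+/+ replicate 1 (559 CPM) and in week 6 Fas-/- replicate 2 (171 CPM), the libraries with the most endothelial marker RNA of their groups (10769 and 3028 CPM). Ces1d was high in week 3 Fas+/+ replicate 4 (489 CPM), and Apoe was low in naive replicate 2 (1132 CPM).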

How the results depend on the processing

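RLE scaling and no filter on low counts left all 9 counts of called members the same. DESeq2 called 1 member in place of 0 for the interaction (Apoe) and 1 in place of 0 from 3 to 6 weeks in Fas-/- libraries (Apod), and with the replicate block each of these was also 1. DESeq2 added Cd36 from 3 to 6 weeks in Fas+/+ libraries (5 in place of 4) and Apod between genotypes at 3 weeks (3 in place of 2). The labels do not pair samples by replicate number, and 14 of 40 same-numbered pairs had correlated deviations above 0.1 (range -0.464 to 0.403). Between genotypes at 6 weeks these correlations were 0.19, 0.403, 0.012 and 0.185, and whether same-numbered libraries shared a step there was not tested. The replicate block left 0 calls between genotypes at 6 weeks (Abca5 adjusted p = 0.0967) and added Apod at 3 weeks (adjusted p = 0.0478). With only the compared groups fitted, 0 members were called between genotypes at 3 and at 6 weeks, and 2 at 6 weeks against naive in either genotype (Cd36 added in Fas+/+, Abca1 in Fas-/-). This fit has fewer libraries behind each estimate of the spread. The counts of called members here and in the rest of this section have no share of all genes in the same setting beside them. They are therefore a description only, since fewer genes of any kind may be called in such a fit.

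Leaving out 1 library at a time gave 0 to 4 calls between genotypes at 3 weeks, 0 to 1 at 6 weeks and 0 to 1 from 3 to 6 weeks in Fas-/- libraries. The 4 came without week 3 Fas-/- replicate 4 (Plin2, Apoe, Abca1 and Ces1d), and 0 without week 3 Fas+/+ replicate 2 or 3. The single call from 3 to 6 weeks was Plin2 without week 3 Fas-/- replicate 4 and Cd36 without week 6 Fas-/- replicate 2.

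With the epithelial covariate, 3 members were called in week 3 Fas-/- against naive, 0 in week 6 Fas+/+ against naive, 1 between genotypes at 3 weeks, 0 at 6 weeks and 1 from 3 to 6 weeks in Fas-/- libraries. It also turned Abca5 in week 3 Fas+/+ against naive to -0.37. With the endothelial covariate, 2 members were called in week 6 Fas+/+ against naive, 0 between genotypes at 6 weeks and 2 from 3 to 6 weeks in Fas-/- libraries. Both covariates were chosen after seeing the data, and the cause of these changes was not tested. In single cells the count of 3 members highest in lipofibroblast-like cells was 2 without shared barcodes and 2 with the haemoglobin-led cluster ranked. Pparg rested on few UMIs in single cells.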
